A study of Mus musculus with 2 samples.

Results

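Actins, thymosins and the proteins that turn actin filaments over were followed in 2 RNA-seq libraries from layer 5 of the mouse cerebral cortex. The set holds 10 genes, chosen by their function: the actins Actb and Actg1, the thymosins Tmsb4x and Tmsb10, the profilins Pfn1 and Pfn2, the cofilins Cfl1 and Cfl2, destrin (Dstn) and drebrin (Dbn1). They were found by symbol among the 43346 Ensembl genes of the gene tables, and all 10 had a row. Both libraries came from wild-type male tissue of a mouse of strain B6NCrl (C57Bl6 in the descriptions) at 8 months. Each was an area of 8000 square microns, entered as 50 cells, taken by laser capture, and made into a library with a Smart-seq type protocol and spike-in RNA. The assay is titled single cell RNA-seq, but each library is a bulk sample of its area. They are numbered 1 and 2 as biological replicates in the labels, where a single donor is entered for both. As far as the labels say they are therefore areas of 1 animal, in 1 group with no treatment. Every SD below is the spread between these areas (n = 2), each side of a difference is 1 library, and no test was made. In an area holding many cell types, fewer cells of a type and less RNA per cell cannot be told apart.

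Actin cycles between single subunits and filaments, and in neurons the cycle shapes dendritic spines and growth cones. Thymosins hold single subunits in reserve, profilins hand subunits to the growing end of a filament, and cofilins and destrin sever old filaments and return their subunits. Drebrin binds along filaments and is a well-known protein of dendritic spines.

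All 10 genes were expressed in both areas. Tmsb4x was the most abundant and Dbn1 the least, and every gene lay above 1 TPM in both libraries. TPM is an abundance per transcript length scaled to the library. Summed over the set, replicate 1 had 9601 TPM and replicate 2 had 9699 TPM, which was 1.52% of the TPM of nuclear protein-coding genes in each. The order by mean TPM ran Tmsb4x, Actb, Cfl1, Actg1, Pfn2, Tmsb10, Pfn1, Dstn, Cfl2 and Dbn1. Neighbours in this order had separate ranges over the 2 libraries, except Pfn2 and Tmsb10, whose ranges overlapped.

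**Figure D1:**
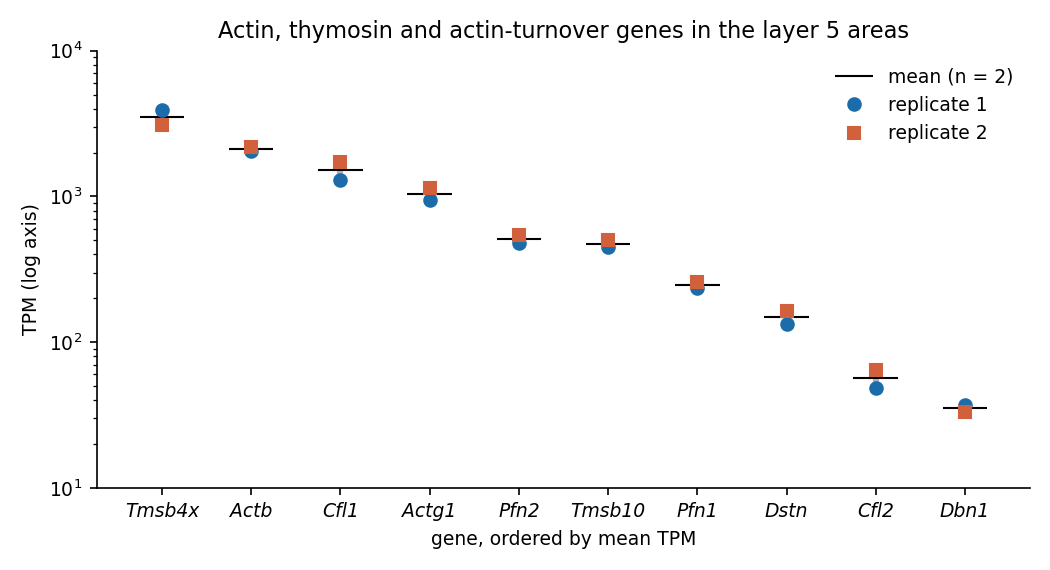
TPM (log axis) of each of the 10 genes in replicate 1 (circles) and replicate 2 (squares), with the mean of the 2 libraries as a bar. The levels descend from 3500.1 TPM for Tmsb4x to 35.0 TPM for Dbn1, and within a gene the libraries lie close together on this scale.

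The libraries held 26059117 and 28276843 expected counts, which are estimated reads. The 10 genes had between 2050 (Dbn1 in replicate 2) and 88199.5 (Actb in replicate 2), and for 8 of them the counting interval of the ratio between areas excluded 1. Intervals given below cover counting error only and treat each read as a separate draw. Reads carry no molecular identifiers, so repeated reads of the same molecule are counted as separate. The intervals may therefore be too narrow. By TPM, markers of neurons and of layer 5 were all at 1 TPM or more in both libraries, 6 of 6 in each list. Neuronal markers summed to 7783 and 9108 TPM, 6 of 6 higher in replicate 2, and layer 5 markers to 3070.3 and 3804 TPM, 5 of 6 higher in replicate 2. All 10 microglial markers were higher in replicate 1 (summed 361 against 111 TPM, none at 0), and all 6 oligodendrocyte markers were higher in replicate 2 (539 against 903 TPM, none at 0). All 6 mural and smooth muscle markers were higher in replicate 1 (23.5 against 6.93 TPM, with Tagln at 0 in replicate 2), as were 3 of 6 endothelial ones (92.7 against 45.7 TPM, none at 0). Haemoglobin and other erythrocyte markers summed to 16.0 and 586 TPM, 4 of 5 higher in replicate 2, and astrocyte markers to 624 and 727 TPM, 4 of 6 higher in replicate 2. The part of these markers in the differences between the areas given below was not tested.

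The thymosins, which sequester actin subunits, were represented mostly by Tmsb4x. Tmsb4x (thymosin beta 4, ENSMUSG00000049775.12, chromosome X from 167207093 to 167209315 on the minus strand of mm10, as for all positions below) stood at 3917 TPM in replicate 1 and 3084 TPM in replicate 2, a mean of 3500.1 ± 589 (SD, n = 2). It ranked at place 6 of 21461 nuclear protein-coding genes in replicate 1 and at place 9 in replicate 2. Tmsb10 (thymosin beta 10, ENSMUSG00000079523.4, chromosome 6 from 72957347 to 72958748 on the minus strand) stood at 448 and 502 TPM, 475 ± 37.9. Tmsb4x was thus higher than Tmsb10 in both libraries, 8.74-fold in replicate 1 and 6.15-fold in replicate 2. It made up 89.7% and 86.0% of the TPM of the pair, 87.9% ± 2.63 (SD, n = 2). By TPM the pair differed in opposite directions between the areas, Tmsb4x being higher in replicate 1 and Tmsb10 in replicate 2, but with spike-in scaling Tmsb10 too was higher in replicate 1, by a log2 ratio of 0.01.

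The coding sequences of the pair are short enough to show whole. They are shown because reads are told apart only where the genes differ. Reads also come from the rest of each transcript, which is not shown. Tmsb4x-201 is 768 bases long and Tmsb10-203 is 570, so the coding part is the smaller part of both. Both are spread over 2 coding exons, of 100 and 32 bases, and have 132 coding bases without the stop codon, read here from the GENCODE M21 transcripts on GRCm38, 5′ to 3′. Capitals mark the 40 bases that differ, so the pair is 69.7% identical. With introns, the coding parts span chrX:167207504-167208036 and chr6:72957621-72958012, both on the minus strand.
Tmsb4x: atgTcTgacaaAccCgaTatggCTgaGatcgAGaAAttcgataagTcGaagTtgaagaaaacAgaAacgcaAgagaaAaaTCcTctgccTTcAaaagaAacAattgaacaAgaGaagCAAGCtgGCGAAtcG
Tmsb10: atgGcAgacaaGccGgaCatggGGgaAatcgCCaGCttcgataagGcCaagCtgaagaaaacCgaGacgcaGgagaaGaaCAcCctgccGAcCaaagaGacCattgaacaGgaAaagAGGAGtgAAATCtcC
The differing bases are scattered along the whole sequence and are dense at the 3′ end. No other gene of the annotation matched a Tmsb4x transcript at 95% identity or more over 80% of the shorter transcript. Tmsb10 had 5 such genes, 4 of them with a row in the tables, and together these held 8.76 TPM in replicate 1 and 1.55 TPM in replicate 2. Adding them to Tmsb10 would change its level by little, but reads of Tmsb10 and its copies are uncertain to that extent. Tmsb4x-201 carried 99.8% and 99.3% of the gene's TPM, and Tmsb10-203 carried 98.1% and 97.2%.

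The cytoplasmic actins, the subunits of the filament itself, were both abundant, with Actb ahead of Actg1 in each area. Actb (beta actin, ENSMUSG00000029580.10, chromosome 5 from 142903115 to 142906754 on the minus strand) stood at 2059.7 TPM in replicate 1 and 2181 TPM in replicate 2, 2120.2 ± 85.5 (SD, n = 2). Actg1 (gamma actin, ENSMUSG00000062825.11, chromosome 11 from 120345690 to 120348542 on the minus strand) stood at 950.3 and 1137 TPM, 1043 ± 132. The ratio of Actb to Actg1 was 2.17 and 1.92, and Actb made up 68.4% and 65.7% of the pair, 67.1% ± 1.90. By TPM, Actb differed least between the areas of the 10 genes. Its counts per total count were 1.01-fold higher in replicate 2, with an exact 95% Clopper-Pearson interval of 0.999 to 1.02 that includes no difference, and with spike-in scaling its log2 ratio turned to 0.09, higher in replicate 1. For Actg1 the same fold was 1.13, with an interval of 1.12 to 1.15.

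**Figure D2:**
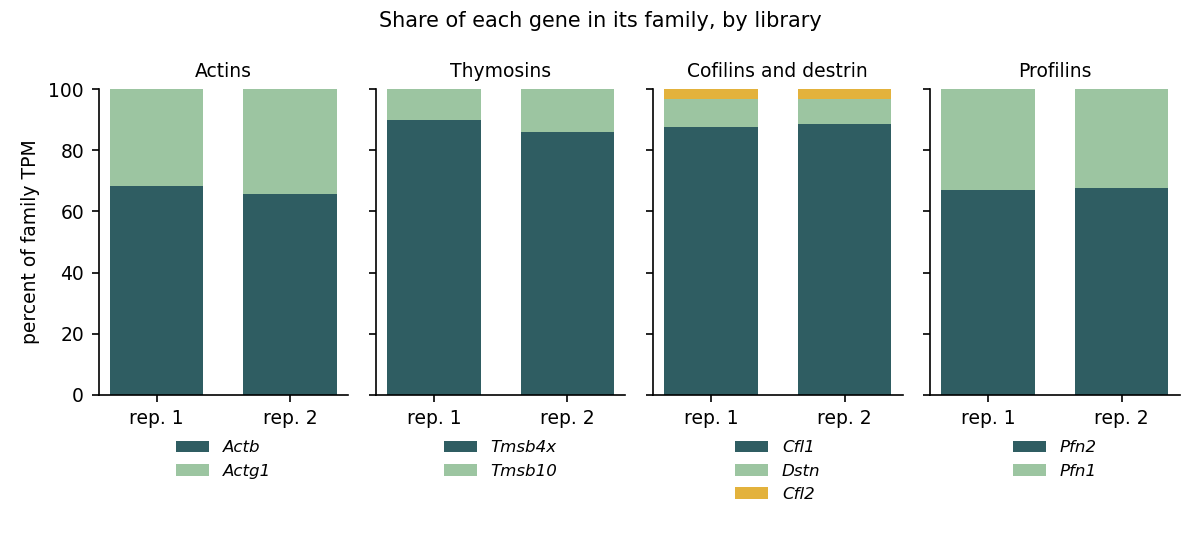
Percent of the summed TPM of each family held by each of its genes, stacked to 100, in replicate 1 and replicate 2. Actb, Tmsb4x, Cfl1 and Pfn2 hold the larger part of their families in both libraries, and no share differs by more than a few percentage points.

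Actb and Actg1 have coding exons of the same lengths, 123, 240, 439, 182 and 141 bases. Over all 1125 coding bases they differ at 128, an identity of 88.62%. The first 60 coding bases are shown because the actin isoforms are known to differ in protein mostly at their start, which lies here. Capitals mark the 9 bases that differ. The stretches lie within 1 exon each, at chr5:142905627-142905686 and chr11:120348032-120348091 on the minus strand.
Actb: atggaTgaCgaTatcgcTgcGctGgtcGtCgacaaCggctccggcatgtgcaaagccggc
Actg1: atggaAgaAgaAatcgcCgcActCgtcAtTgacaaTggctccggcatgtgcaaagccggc
The differences fall in the first part of the stretch and the last bases are the same in both. Actb had no gene of near-identical transcript. Actg1 had 6, all processed pseudogenes, of which 3 had a row and held 4.57 and 6.44 TPM in all. The most similar, Gm12715, matched at 99.6% and stood at 2.96 and 3.86 TPM. The deposited posterior SD of the count, which measures how far the division of shared reads is uncertain, was 10.8 and 13.6 reads for Actg1 and 2.69 and 2.65 reads for Actb, small beside counts of 36508 and 44939 for Actg1 and 80595 and 88199.5 for Actb.

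Actb was read almost wholly as 1 transcript, Actb-201, at 99.8% and 99.7% of the gene's TPM out of 8 transcripts. Actg1 was divided between 2 of its 9 transcripts. Actg1-204 held 52.0% in replicate 1 and 60.4% in replicate 2, and Actg1-202 held 47.8% and 39.5%. These have the same coding sequence. Actg1-202 has 124 bases before the first coding base where Actg1-204 has 0, and 1 more base at the 3′ end, so that the division between them rests on reads at the ends of the transcripts.

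Set against the actins, the thymosins exceeded them in RNA per length. The ratio of thymosin to actin TPM was 1.45 in replicate 1 and 1.08 in replicate 2, 1.27 ± 0.26 (SD, n = 2). It was above 1 in both areas per length, while the spread between them was large. In expected counts, which are not per length, the mean ratio was 0.452, so the order of the families holds per length only. The profilin to actin ratio varied least, at 0.237 and 0.241. The ratio of cofilins and destrin to actin was 0.490 and 0.592. The larger thymosin ratio was found in replicate 1, where the microglial marker sum was higher, 361 against 111 TPM. Mural and endothelial marker sums were also higher there, and neuronal, layer 5, oligodendrocyte, astrocyte and erythrocyte sums were lower. With 2 areas these cannot be told apart. Whether any of them has a part in the ratio was not tested.

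Profilins bind single actin subunits and pass them to filament ends and to formins. Pfn2, the form enriched in brain, was the more abundant. Pfn2 (ENSMUSG00000027805.12, chromosome 3 from 57841895 to 57848079 on the minus strand) stood at 477 TPM in replicate 1 and 539.9 TPM in replicate 2, 509 ± 44.4 (SD, n = 2). Pfn1, the form found in most tissues (ENSMUSG00000018293.4, chromosome 11 from 70651850 to 70654644 on the minus strand), stood at 236 and 259 TPM, 248 ± 16.2. The Pfn2 to Pfn1 ratio was 2.02 and 2.08, and Pfn2 held 66.9% and 67.6% of the pair, 67.2% ± 0.49. The share was thus nearly the same in both areas. In counts per total count, both were higher in replicate 2, Pfn2 by 1.08-fold (interval 1.06 to 1.10) and Pfn1 by 1.04-fold (interval 0.992 to 1.08, which includes no difference). With spike-in scaling Pfn1 was instead higher in replicate 1, by a log2 ratio of 0.04.

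The profilins share coding exon lengths of 132, 193 and 95 bases but little more of the sequence than that: over 420 coding bases they differ at 161, an identity of 61.67%. Neither profilin had another gene of near-identical transcript, and the posterior SD of the count was 0 for both. Pfn2-201 held 96.0% and 96.4% of Pfn2, and the other 3 transcripts held at most 2.57% each. Pfn1-201 held 99.7% of Pfn1 in replicate 1 and 95.9% in replicate 2. A transcript annotated for nonsense-mediated decay, Pfn1-204, had 0 and 2.85%.

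Cofilins and destrin bind along old filaments and break them. Cfl1, the non-muscle cofilin, led this group in both areas, ahead of Dstn and then of Cfl2, known as the muscle cofilin. Cfl1 (ENSMUSG00000056201.6, chromosome 19 from 5490455 to 5495201 on the plus strand) stood at 1295 TPM in replicate 1 and 1737 TPM in replicate 2, 1516 ± 313 (SD, n = 2). Dstn (ENSMUSG00000015932.8, chromosome 2 from 143915320 to 143943324 on the plus strand) stood at 133 and 163 TPM, 148 ± 21.5. Cfl2 (ENSMUSG00000062929.7, chromosome 12 from 54858809 to 54862877 on the minus strand) stood at 48.7 and 64.1 TPM, 56.4 ± 10.9. All 3 were higher in replicate 2, and their proportions stayed close. Cfl1 held 87.7% and 88.4% of their summed TPM, 88.1% ± 0.51, Dstn held 9.01% and 8.32%, and Cfl2 held 3.30% and 3.26%. Per total count, Cfl1 was 1.28-fold higher in replicate 2 (interval 1.26 to 1.30), Cfl2 1.25-fold (1.20 to 1.32) and Dstn 1.17-fold (1.13 to 1.21). These folds exceed counting error as these intervals measure it, but each is the difference of 1 area from 1 other.

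The 3 genes have a second coding exon of 308 bases and a next one of 77 bases in common. The shorter one, exon 3, is shown for all 3. It is the more alike of these exons, Cfl1 being 76.62% identical to Cfl2 and 80.52% to Dstn, against 70.45% and 68.83% over exon 2. Capitals mark bases of Cfl2 and Dstn that differ from Cfl1, 18 in Cfl2 and 15 in Dstn. The exons shown lie at chr19:5493155-5493231 on the plus strand, chr12:54861337-54861413 on the minus strand and chr2:143939952-143940028 on the plus strand.
Cfl1: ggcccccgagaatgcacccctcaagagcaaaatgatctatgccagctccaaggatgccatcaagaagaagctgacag
Cfl2: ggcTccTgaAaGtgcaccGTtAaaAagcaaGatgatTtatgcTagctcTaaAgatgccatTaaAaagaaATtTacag
Dstn: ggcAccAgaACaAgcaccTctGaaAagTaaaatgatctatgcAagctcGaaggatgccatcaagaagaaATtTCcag
Over exons 2 and 3 together, 385 bases, Cfl1 and Cfl2 were 71.69% identical, Cfl1 and Dstn 71.17%, and Cfl2 and Dstn 68.83%. Each of the 3 genes was listed with 1 transcript, so nothing can be said of their isoforms. Cfl1 had 1 near-identical gene, the processed pseudogene Gm6180, at 98.8% identity and 3.85 and 4.17 TPM. Cfl1 also overlaps Snx32 on the opposite strand, over 114 bases of its transcript. Snx32 stood at 85.7 and 61.0 TPM and so ran in the other direction from Cfl1. The strand setting of the counting was not given in the sources used here, and without it reads in that stretch cannot be told apart. Cfl2 overlaps a long non-coding RNA on the opposite strand over 81 bases, with the same limit.

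Drebrin, the spine protein, was the least abundant of the set. Dbn1 (ENSMUSG00000034675.13, chromosome 13 from 55473429 to 55488111 on the minus strand) stood at 36.8 TPM in replicate 1 and 33.3 TPM in replicate 2, 35.0 ± 2.50 (SD, n = 2). Its counts per total count were 1.14-fold higher in replicate 1, with an interval of 1.07 to 1.21. With Tmsb4x it was 1 of 2 genes of the set that were higher in replicate 1 by TPM, against 5 with spike-in scaling.

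Drebrin is made in a form of the embryonic brain and a form of the mature brain, known as drebrin E and drebrin A, and the adult form carries an internal insert. The annotation does not name the forms, but it holds a cassette exon that some transcripts have and others skip: exon 11 of the 15 exons of Dbn1-201, 138 bases at chr13:55476636-55476773 on the minus strand. Dbn1-201 has it, and Dbn1-202 and Dbn1-203 join the flanking exons without it. The exon is shown in capitals between 30 bases of either neighbour, and below it the same junction in Dbn1-202, which lies across chr13:55476287-55477580.
Dbn1-201: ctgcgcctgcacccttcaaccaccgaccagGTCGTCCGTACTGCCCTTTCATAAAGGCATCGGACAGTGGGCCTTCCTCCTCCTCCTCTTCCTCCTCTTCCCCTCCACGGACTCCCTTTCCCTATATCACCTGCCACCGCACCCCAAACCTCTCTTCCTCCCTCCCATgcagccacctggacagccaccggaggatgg
Dbn1-202: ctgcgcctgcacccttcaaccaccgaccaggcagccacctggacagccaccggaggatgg
The lower-case bases of the first line, read without the capitals, are the second line. Dbn1-201 held 81.7% of the gene's TPM in replicate 1 and 82.8% in replicate 2, 82.2% ± 0.79 (SD, n = 2). Dbn1-202 held 8.91% and 11.5%, and Dbn1-203 held 0 in both. The other 6 transcripts neither list this exon with these ends nor join the exons on either side of it. They held 9.43% and 5.69%, led by the retained-intron transcript Dbn1-205 at 5.99% and 3.69%. Among transcripts that either list the exon or join its neighbours without it, those with the exon therefore made up 90.2% and 87.8%, 89.0% ± 1.68. By expected counts the percent was 92.3 and 90.4, and by the posterior mean estimate it was 87.7 and 83.8. The transcript with the exon predominated in both areas by each of these measures. Dbn1-202 also differs from Dbn1-201 outside this exon, with 3 more bases at its exon next to last. In all it is 700 bases shorter, the 138 bases of the exon included. The percent therefore rests on differences elsewhere in the transcripts as well as on the exon.

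**Figure D3:**
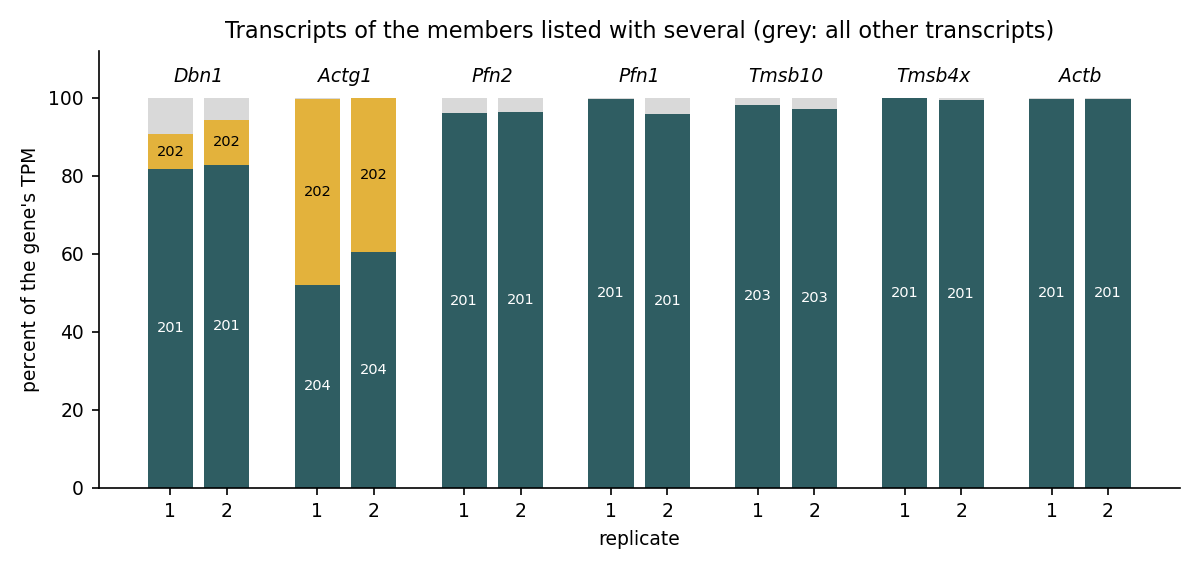
Percent of the gene's TPM held by each transcript of the 7 genes listed with more than 1, in replicate 1 and replicate 2. Coloured blocks are transcripts at 10% or more in either library, labelled by transcript number, and grey is the rest. Actg1 is divided between transcripts 204 and 202, Dbn1 has a minor transcript 202 at 8.91% and 11.5%, and the other 5 genes are nearly all 1 transcript.

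Between the areas the 10 genes differed by less than 1.5-fold, each of them. Ratios were taken as log2 of TPM + 1 in replicate 1 over replicate 2, which makes changes of low genes look smaller. None of the 10 was more than 1.5-fold higher in replicate 1, where 3.86% of the 4409 nuclear protein-coding genes whose mean reached 20 TPM were. None was more than 1.5-fold higher in replicate 2 either, where 8.14% of those genes were. Against shares this low, little can be read from 0 of 10. The log2 ratios ran from -0.42 (Cfl1) to 0.34 (Tmsb4x). The others were -0.39 for Cfl2, -0.29 for Dstn, -0.26 for Actg1, -0.18 for Pfn2, -0.16 for Tmsb10, -0.13 for Pfn1, -0.08 for Actb and 0.14 for Dbn1. The median over the set was -0.17, against -0.05 over the 4409 genes, and the median size regardless of sign was 0.22 against 0.24. A ratio at least as far from 0 as that of Tmsb4x was found in 33.2% of the 4409 genes, and for Cfl1 in 24.1%, so that neither stood outside the usual spread between these areas.

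**Figure D4:**
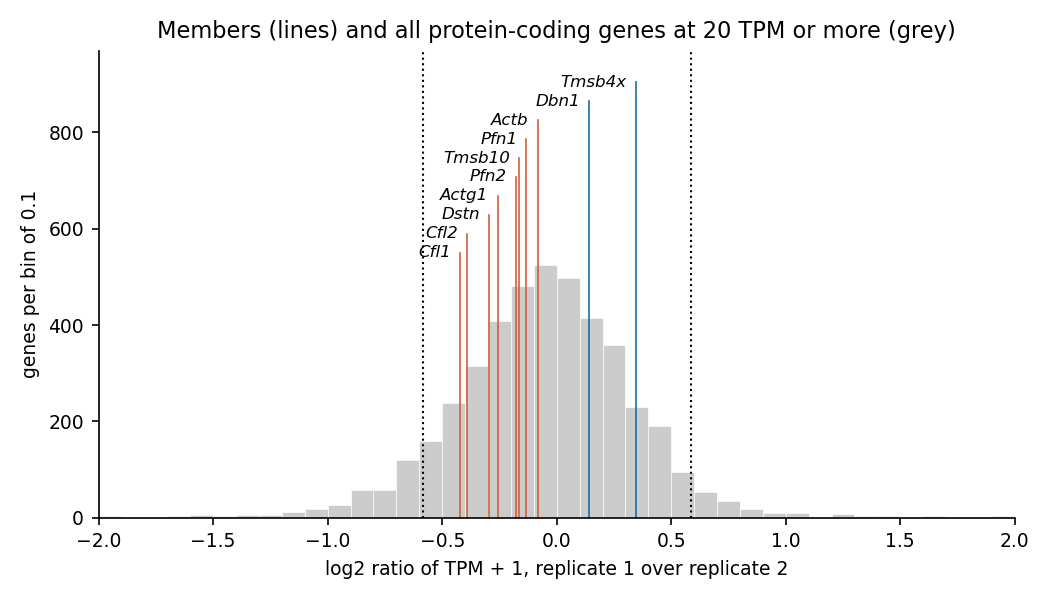
Log2 ratio of TPM + 1, replicate 1 over replicate 2, for the 10 genes (vertical lines, of arbitrary height) over a histogram of nuclear protein-coding genes whose mean reached 20 TPM (genes per bin of 0.1). Dotted lines mark 1.5-fold. All 10 lines fall between the dotted lines, 8 of them left of 0 (5 with spike-in scaling), and 11 genes below -2 and 10 above 2 are not drawn.

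The direction of the smaller differences depends on the scaling. When TPM was scaled to the spike-in RNA, the median of the 4409 genes went from -0.05 to 0.12, and the 10 genes went with it: Actb (0.09), Pfn1 (0.04) and Tmsb10 (0.01) were then higher in replicate 1. Tmsb4x (0.52) and Dbn1 (0.31) kept their direction, as did Cfl1 (-0.25), Cfl2 (-0.22), Dstn (-0.12) and Actg1 (-0.08), and Pfn2 came to -0.003. Relative to the median gene, 2 of 10 lay above and 8 below under either scaling. Tmsb4x lay 0.39 above it by TPM and 0.40 above it by spike-in scaling, and Cfl1 lay at -0.37 from it by both. Spike-in scaling multiplies all genes of a library by the same factor. Apart from the pseudocount, it therefore could not change these positions relative to the median gene.

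The rest of the actin pathway was read from lists chosen by function. Of 105 listed symbols 102 were matched to a row. Of the other 3, all in the cofilin list, 2 were misspelt in the list used here, and the M21 identifier of 1, Pdxp, had no row, so their levels are not analysed here. Of the matched genes, 86 reached 1 TPM in both libraries and 46 had a mean of 20 TPM or more. Of these 46, 3 (6.52%) were more than 1.5-fold higher in replicate 1, against 3.86% of the 4409 comparison genes. In replicate 2 it was 0, against 8.14% of those genes. Beside these shares, little can be read from such counts, and less from the smaller lists below with none beyond 1.5-fold. The median log2 ratio of the 46 was -0.12.

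Other actins, thymosins and profilins were low or absent. Of 12 such relatives, 6 reached 1 TPM in both areas and 6 had 0 counts in both, the smooth muscle actin Acta2 and the actin-like Actbl2 among them. A count of 0 allows up to 3 counts, which are 0.115 CPM in replicate 1 and 0.106 CPM in replicate 2 (CPM, counts scaled to a library's total). Dbnl, a drebrin-like filament-binding protein, stood at 35.4 and 49.1 TPM. The thymosins of the Tmsb15 family were Tmsb15b1 at 49.7 and 23.1 TPM, Tmsb15b2 at 31.9 and 28.7 TPM and Tmsb15l at 42.5 and 13.9 TPM. Of these, Tmsb15l (log2 ratio 1.54) and Tmsb15b1 (1.08) were beyond 1.5-fold. They belong to a multigene family on low counts (288 and 134 for Tmsb15l, with a posterior SD of 16.7 and 11.5 reads), and the division of reads among them is uncertain. On the minus strand of chromosome X, Tmsb15l as annotated spans all of Tmsb15b2 and nearly all of Tmsb15b1. The 2 calls are therefore not of separate loci. The effective length of Tmsb15l was 315 and 433 bases, and with TMM-scaled CPM its log2 ratio came to 1.06. All 3 lay far below Tmsb4x and Tmsb10.

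Regulators and helpers of cofilin and other disassembly factors numbered 24, of which 21 were matched and 19 reached 1 TPM in both areas. The most abundant were Coro1a, a coronin, at 79.9 and 89.2 TPM, Cap2, a cyclase-associated protein that recycles subunits, at 78.5 and 91.9 TPM, and Wdr1, which speeds cofilin severing, at 50.9 and 59.4 TPM. Scin, a severing protein, had 0. The median log2 ratio of the 8 at 20 TPM or more was -0.19, with none beyond 1.5-fold.

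The Arp2/3 complex, which starts branched filaments, was present as a whole, with 10 of 10 genes at 1 TPM or more in both areas. Arpc4 stood at 256 and 276 TPM, Arpc1a at 170.2 and 192 TPM and Actr2 at 191 and 162 TPM. By TPM 5 of the 10 were higher in each area, the median of the 9 at 20 TPM or more was -0.07, and none was beyond 1.5-fold. Its activators of the WASP and WAVE families had 10 of 12 at 1 TPM or more in both areas. Brk1, a small subunit of the WAVE complex, led at 469 and 447 TPM, followed by Cyfip2 at 115 and 135 TPM and Nckap1 at 101 and 109.99 TPM, both of the same complex. Was, the blood-cell form, stood at 0.18 and 0.54 TPM. The median of the 7 at 20 TPM or more was 0.07, with none beyond 1.5-fold.

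Formins, which build unbranched filaments from profilin-bound actin, were low. Of 13 genes, 10 reached 1 TPM in both areas and none had a mean of 20 TPM. The highest were Fmnl1 at 13.0 and 23.8 TPM, Inf2 at 8.83 and 20.4 TPM and Fmn2 at 12.0 and 9.89 TPM, while Fhod1 stood at 0.40 and 0.05 TPM and Fmnl3 at 0.21 and 0 TPM. Capping proteins, which close filament ends, had 10 of 13 at 1 TPM or more in both. Capza2 (323 and 295 TPM) and Capzb (200.1 and 228 TPM), a subunit of each kind of the barbed-end capping protein, and Tmod2 (196 and 177 TPM), a tropomodulin of the pointed end, led them. Tmod4 and Vil1, known from muscle and from gut, had 0 counts in both. The median of the 5 at 20 TPM or more was -0.06, with none beyond 1.5-fold.

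Proteins that bind, bundle or anchor filaments were all expressed, 21 of 21 at 1 TPM or more in both areas. The spectrins Sptbn1 (168 and 189.6 TPM) and Sptan1 (125 and 161 TPM) and the tropomyosin Tpm1 (198 and 130.4 TPM) were the highest. Tpm1 was the 1 gene of these 12 at 20 TPM or more that lay beyond 1.5-fold, at a log2 ratio of 0.60. With TPM of nuclear genes alone it came to 0.58 and with TMM-scaled CPM to 0.45, both inside 1.5-fold, whereas posterior mean TPM (0.59) and spike-in scaled TPM (0.77) left it beyond. The median of the 12 was -0.19, near that of the 10 genes of the set.

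**Figure D5:**
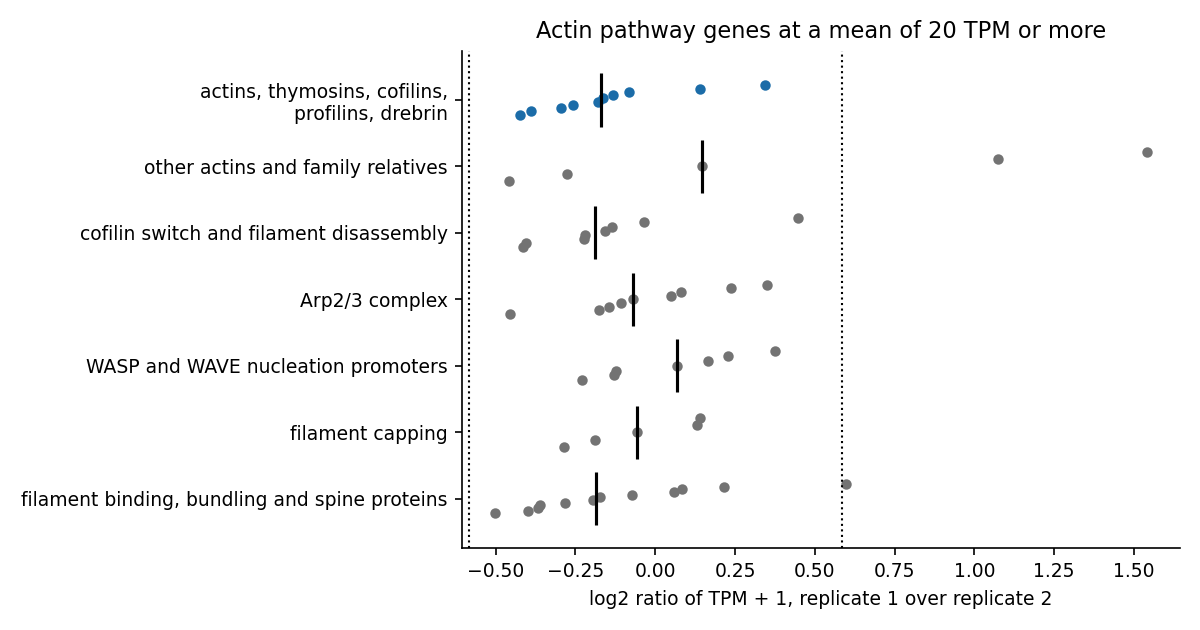
Log2 ratio of TPM + 1, replicate 1 over replicate 2, of each gene whose mean reached 20 TPM (points) in the set of 10 and in 6 lists of the pathway, with the median of each as a bar and 1.5-fold as dotted lines. Points are spread vertically only to be seen. Tmsb15l, Tmsb15b1 and, just past the line, Tpm1 lie beyond 1.5-fold, and no point lies beyond it on the side of replicate 2. Genes under that mean are not drawn, and some of them lay beyond 1.5-fold towards either area, such as Inf2 (-1.12) and Tpm2 (1.45).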

How the data were processed

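RNA-seq was read in 2 libraries of 1 group, with the replicate numbers of the labels. For each gene and each transcript the deposited tables hold an expected count, the authors' estimate of reads per feature, with reads that fit several features divided among them. The deposited TPM were scaled per length and to a fixed sum over all features, spike-ins and mitochondrial genes included. The deposited transcript tables gave the percent of a gene's TPM in each transcript. The other deposited values used were posterior means and the posterior SD of the count. Assembly mm10 and annotation release M4 are named in the deposited text files, and the columns are laid out as RSEM writes them. Program, aligner, trimming and strand setting are not given in the sources used here.

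Symbols, gene classes, positions and sequences came from GENCODE M21 on GRCm38. Sequences of the profilins are not reported here. The set and all lists were chosen with earlier results of these data known. Named genes were the 10 of the set and, per list, the 3 most abundant, up to 2 at 20 TPM or more beyond 1.5-fold with the largest ratio, and the first 2 in the alphabet among those under 1 TPM in each library. Transcripts named by rule held 10% or more in either library. The other transcripts, the pseudogenes and overlapping genes beside a member, and the genes named in the closing observations were chosen after their values were seen. The pseudocount was 1, detection 1 TPM, and the minimum of the comparison genes a mean of 20 TPM. Near-identical genes matched a member's transcript at 95% identity over 80% of the shorter one, of at least 100 bases (BLAST 2.17.0). Counting intervals were exact 95% Clopper-Pearson intervals. Chi-square per degree of freedom between the libraries was 68.5 over the 14067 genes with 50 counts or more in sum, so they are not copies. Rows that give a number and no gene held 20.3 and 5 counts and were left out. With R 4.3.3, edgeR 4.0.16 gave TMM factors for an alternative from expected counts rounded to whole numbers. The rest was run with matplotlib 3.10.9, scipy 1.17.1, pandas 2.3.3 and numpy 2.4.6 under Python 3.11.15. The calculation of the ratios was tried on simulated counts with set folds. These held counting error only, so they say nothing of the spread between areas. Scaling to spike-ins and centring on the median gene were added after seeing the data.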

Additional observations from a re-analysis of the deposited data

How the results depend on the processing

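All 10 genes reached 1 TPM in both areas and 0 lay beyond 1.5-fold under every alternative run. The median log2 ratio of the set, -0.17, came to 0.0044 with spike-in scaling. With expected counts, which are not per length, in place of TPM, the Cfl1 share went from 88.1% to 78.7%, the Pfn1 share from 32.8% to 17.8%, the Tmsb4x share from 87.9% to 91.1% and the thymosin to actin ratio from 1.27 to 0.452. The leading Dbn1 transcript went from 82.2% to 76.8% by posterior means. Of the alternatives for the set, its shares and its transcripts, 70 stayed within the spread or within 1.5 times the count and these 6 did not. Some of the 70 could not have moved. With 2 libraries, the value of 1 alone always lies within the SD of their mean. Leaving out a library therefore could not move a share, ratio or transcript percent out of the spread. Posterior means of Cfl1, Cfl2 and Dstn, listed with 1 transcript each, were fixed at 100%. Values of single genes moved in 5 cases out of the rest, all with spike-in scaling, and 47 did not. The 47 include Actg1, from -0.26 to -0.08 with spike-in scaling, and Dstn, from -0.29 to -0.12, both much closer to no difference. A larger ratio could thus change by much and still count as not moved. No paired analysis was possible because there is 1 group. Leaving out a library gives the other's value, from 1.08 to 1.45 for the thymosin to actin ratio. The counting interval includes no difference for Actb and Pfn1. For the others the limits are reads that may repeat a molecule and 2 areas with 1 donor.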

Other observations

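The next values are of low members of the actin pathway lists, chosen after their values were seen. They lie under the mean of 20 TPM used above, except for Acta1, at a mean of 27.6 TPM. Arpc1b, the other form of the Arp2/3 subunit Arpc1a, stood at 6.36 TPM in replicate 1 and 2.65 TPM in replicate 2, whereas Arpc1a stood at 170.2 and 192 TPM. The counts of Arpc1b were 128 and 77, a 1.80-fold difference per total count. Its deposited effective length was 936 bases in replicate 1 and 1306 in replicate 2. Nckap1l, the blood-cell relative of the WAVE complex gene Nckap1, had 114 counts in replicate 1 and 0 in replicate 2, and Capg, a capping protein of macrophages, had 19 and 0. Microglial markers summed to 361 and 111 TPM, all 10 higher in replicate 1, and their part in these values was not tested. Was (8 and 24 counts) and Lcp1 (32 and 146 counts), also known from blood cells, had more counts in replicate 2.

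Tpm2, a tropomyosin, stood at 22.7 and 7.71 TPM, in the same direction as Tpm1. Pfn4, a profilin known from testis, stood at 5.19 and 17.9 TPM, and was thus detected in both areas far below Pfn1 and Pfn2. Acta1, the skeletal muscle actin, stood at 24.8 and 30.3 TPM, from 713 and 899 counts with a posterior SD of 0, while Acta2 had 0. Ssh1, a phosphatase that activates cofilin, stood at 8.46 and 2.02 TPM on similar counts, 430 and 375, with a deposited effective length of 2361 bases in replicate 1 and 8337 in replicate 2.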
